A study of Mus musculus with 2 samples.

Results

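The red cell membrane skeleton was described through 8 genes, Sptb, Ank1, Epb41, Epb42, Slc4a1, Add2, Dmtn and Rhag, of the 43346 annotated genes measured in MEL cells. They were chosen by gene symbol, which was matched to the gene identifiers of the deposited tables, and all 8 were found, each once. MEL is an established mouse erythroleukemia line, an immortalized line that stands at the stage of red cell precursors and matures further only when induced. Polyadenylated RNA was sequenced single-end in 2 libraries, biological replicates 1 and 2 of a single group, with no treatment, genotype or time given and no contrast. Nothing in the labels says more about how far apart the replicate cultures were, so their spread may be partly technical. A bulk library cannot tell fewer expressing cells from less RNA per cell.

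The inner face of the red cell membrane carries a lattice of spectrin tetramers joined at nodes of short actin filaments. Ankyrin ties spectrin to the anion exchanger (band 3) with the help of protein 4.2, while protein 4.1, adducin and dematin hold spectrin to actin at the nodes. The Rh-associated glycoprotein is part of the complexes through which the lattice is fixed to the lipid bilayer, and loss of several of these proteins causes hereditary spherocytosis or elliptocytosis.

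An expected count is an estimated number of reads, and the genes took 67735380 of them in replicate 1 and 79923143 in replicate 2. Levels are given in TPM, a transcript's share of a library scaled to a fixed sum, which corrects for length and makes genes comparable within a library. At this depth a gene with 0 counts could still hold up to 4.43e-06% of reads in replicate 1 and 3.75e-06% in replicate 2. Such limits, and the intervals below, cover counting error only. All 9 erythroid marker genes looked at reached 10 TPM in both replicates, with a median of the mean levels of 156 TPM. Of 7 markers of T cells, B cells, myeloid cells, fibroblasts and epithelium, 0 reached 1 TPM, their summed level was 0.26 TPM in replicate 1 and 0.66 TPM in replicate 2, and Cd3e had 0 counts in both.

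The 6 members of the spectrin lattice, its ankyrin link, its actin nodes and the Rh complex were well expressed, and the 2 genes of the band 3 attachment site, Slc4a1 and Epb42, were not. In both replicates 7 of 8 members reached 1 TPM, against 46.8% of the 21474 protein-coding genes, and 6 of 8 reached 10 TPM, against 31.4%. The median of the members' mean levels was 43.8 TPM, while that of all protein-coding genes was 0.49 TPM. The members together made up 385 TPM in replicate 1 and 393 TPM in replicate 2.

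**Figure D1:**
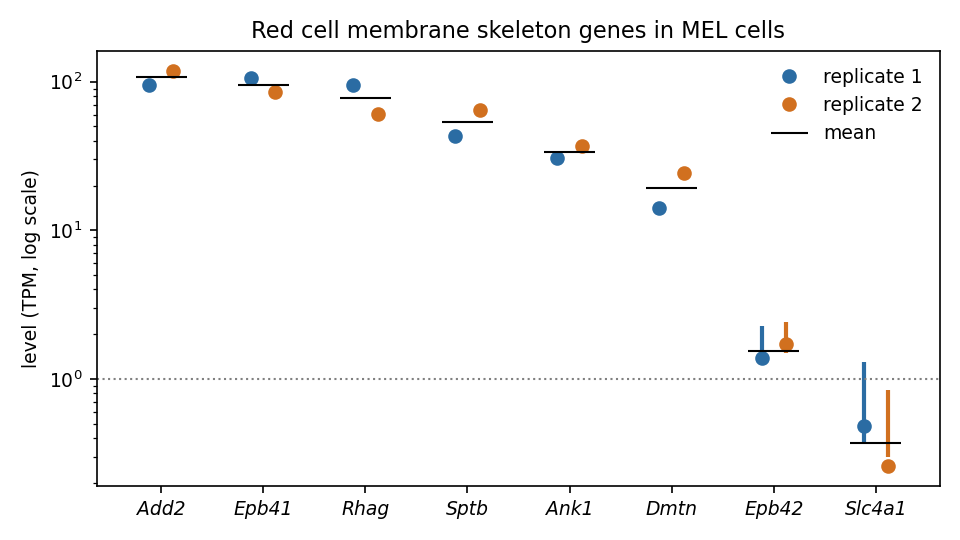
Level of each member in TPM on a log axis, with 1 point per replicate, the mean as a short line and the deposited credibility bounds of each library as vertical bars; the dotted line marks 1 TPM. Add2, Epb41, Rhag and Sptb lie between 42.9 and 119 TPM, each overlapping its neighbour in this order, Ank1 and Dmtn lie lower, and Epb42 and Slc4a1 lie near or under 1 TPM. The deposited TPM can fall just outside its bounds, as for Slc4a1 in replicate 2.

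The adducin gene Add2 (ENSMUSG00000030000.8; mm10 chromosome 6, 86028681-86124409, plus strand) encodes beta adducin, which caps the fast-growing end of actin and brings spectrin to it. It was measured at 94.6 TPM in replicate 1 and 119 TPM in replicate 2, or 107 ± 17.3 TPM (SD, n = 2), above 93.7% of protein-coding genes. Epb41 (ENSMUSG00000028906.11; chromosome 4, 131923413-132075321, minus strand) encodes protein 4.1, which strengthens the binding of spectrin to actin. Its level was 106 TPM in replicate 1 and 85.5 TPM in replicate 2, a mean of 95.6 ± 14.2 TPM. Rhag (ENSMUSG00000023926.7; chromosome 17, 40811126-40840754, plus strand) encodes the Rh-associated glycoprotein, a membrane channel needed for the Rh complex to reach the cell surface, and stood at 95.1 and 60.6 TPM, a mean of 77.8 ± 24.4 TPM. The replicate ranges of neighbours in the order Add2, Epb41, Rhag and Sptb overlapped, so neighbours could not be ranked, while both Add2 and Epb41 lay above Sptb in each replicate.

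Sptb (ENSMUSG00000021061.11; chromosome 12, 76580488-76710547, minus strand) encodes the beta chain of red cell spectrin. It was measured at 42.9 TPM in replicate 1 and 64.4 TPM in replicate 2, or 53.7 ± 15.2 TPM (SD, n = 2). Ank1 (ENSMUSG00000031543.14; chromosome 8, 22974844-23150497, plus strand), the ankyrin gene, stood at 30.5 and 37.1 TPM, or 33.8 ± 4.66 TPM. Dmtn (ENSMUSG00000022099.12; chromosome 14, 70601263-70636048, minus strand) encodes dematin, an actin-bundling protein with a villin-type headpiece, and stood at 14.1 and 24.3 TPM, or 19.2 ± 7.23 TPM. In deposited TPM the replicate ranges did not overlap from Sptb to Ank1, from Ank1 to Dmtn and from Dmtn to Epb42. For Ank1 and Dmtn this depended on the transcript length used, as given below.

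Epb42 (ENSMUSG00000023216.9; chromosome 2, 121017891-121037072, minus strand) encodes protein 4.2, a relative of the transglutaminases that has lost enzyme activity and binds band 3 and ankyrin. It was measured at 1.39 TPM on 163 counts in replicate 1 and at 1.72 TPM on 199 counts in replicate 2, a mean of 1.55 ± 0.233 TPM, above 53.8% of protein-coding genes. Slc4a1 (ENSMUSG00000006574.11; chromosome 11, 102348824-102366203, minus strand) encodes band 3, the chloride and bicarbonate exchanger that is the most abundant protein of the mature red cell membrane. It had 29 counts and 0.48 TPM in replicate 1 and 69 counts and 0.26 TPM in replicate 2, a mean of 0.37 ± 0.156 TPM, above 49% of protein-coding genes.

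The TPM of Slc4a1 and its counts pointed in opposite directions between the replicates. In replicate 1, 5.28 of the 29 counts were assigned to Slc4a1-203, a short transcript without a coding sequence, which gave it 0.37 TPM and 77.1% of the TPM of the gene. The coding transcript Slc4a1-201 had 0.11 TPM on 23.72 counts in replicate 1 and 0.26 TPM on 69 counts in replicate 2. Its deposited credibility bounds were 0.0674 to 0.16 TPM and 0.195 to 0.315 TPM, which did not overlap, while those of Slc4a1-203 overlapped. Effective length, the divisor of the deposited TPM, was 1307 nt in replicate 1 and 4501 nt in replicate 2 for Slc4a1 and 3521 and 4454 nt for Epb41. With the length of the longest listed transcript in both replicates, Slc4a1 stood at 0.14 and 0.26, Epb42 at 0.869 and 0.83, and Epb41 at 57.1 and 58.4 on the TPM scale. Epb41 then fell behind Rhag at 95.1 and 60.6. The ranges of Ank1, at 22.4 and 31.1, and of Dmtn, at 14.1 and 24.3, then overlapped, so these genes could not be ranked.

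Members were set against related genes, some of other tissues and some their red cell partners, and in 3 pairs against each other, as the log2 ratio of TPM with 0.1 added to each value. A ratio was taken as larger than the replicate spread when both replicates had the same sign and the mean exceeded 1.40 on the log2 scale, or 2.64-fold. That limit is the 95th percentile of the difference between the replicates over the 11655 genes at 1 TPM or more in both. It describes single genes and not ratios between genes, and genes under 1 TPM, such as Slc4a1, are not among them. Of 19 pairs, 16 passed, 3 did not, and 0 changed sign between the replicates. The 16 include 5 pairs whose other gene had 0 counts in a library, for which the ratio rests on the added 0.1. With 2 replicates an exact test on the signs cannot go below p = 0.5, so no p was computed.

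For ankyrin and protein 4.1, the red cell gene exceeded every relative measured. Ank1 was 13.3-fold above Ank2 (2.55 and 2.33 TPM; log2 ratio 3.73 ± 0.29, SD, n = 2) and 6.77-fold above Ank3 (4.76 and 5.02 TPM; 2.76 ± 0.15), the ankyrins best known from heart and nerve. Epb41 was 6.68-fold above Epb41l2 (15.2 and 13.1 TPM; 2.74 ± 0.07) and 18.4-fold above Epb41l1 (4.18 and 6.13 TPM; 4.20 ± 0.60). Epb41l3 had 0 counts in both replicates, so Epb41 was at least 6514-fold higher against a floor of 3 counts per library. Dmtn exceeded Vil1, the villin gene of gut epithelium, which had 4 and 5 counts. The log2 ratio was 7.16 ± 0.55, but since Vil1 lay at 0.03 TPM its size rests on the amount added: it was 8.86 with 0.01 and 4.25 with 1 in place of 0.1, and 6.19 with posterior mean TPM.

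For spectrin and adducin the lead over the widely expressed relative was smaller. Sptb stood 2.88-fold above Sptbn1 (21.6 and 15.3 TPM), a log2 ratio of 0.99 in replicate 1 and 2.06 in replicate 2, so replicate 1 alone did not pass the limit. The nonerythroid alpha spectrin gene Sptan1 was at 19.6 and 19 TPM, and Sptbn4 was at 0.29 and 0.52 TPM. The ratio of Add2 to Add1, which encodes the alpha chain that pairs with beta adducin, lay inside the limit. Add1 stood at 74.9 and 90.7 TPM, and the ratio was 1.29-fold, with Add2 higher in each replicate (0.34 and 0.39 on the log2 scale). Add2 was 2.94-fold above Add3 (38.8 and 33.4 TPM), with a log2 ratio of 1.28 in replicate 1, under the limit.

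In the Rh family Rhag and Rhd, the Rh antigen gene with which it forms a complex, were both expressed. Rhd stood at 28.8 and 37.8 TPM, and the ratio of 2.3-fold did not pass the limit, although replicate 1 alone did at 1.72 on the log2 scale. The kidney and liver members Rhbg and Rhcg had 0 counts in both replicates, which put Rhag at least 2250-fold and at least 1135-fold higher against the floor.

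The pattern was the other way round for band 3. Slc4a1 was 67.8-fold lower than Slc4a2, the anion exchanger of most nucleated cells, which stood at 23 and 41.4 TPM, with a log2 ratio of -6.08 ± 1.08 (SD, n = 2). That ratio was -4.55 with 1 in place of 0.1 added, -5.39 with posterior mean TPM and -6.85 with replicate 2 alone, so its size is uncertain and its direction was the same in each. Slc4a3 had 0 and 1 count, too few for a ratio. Against its own partners in the membrane, Slc4a1 was 73.9-fold below Ank1 (-6.21 ± 0.69, or -4.67 with 1 added and -5.45 with posterior mean TPM) and 3.6-fold below Epb42 (-1.85 ± 0.69). Epb42 was 2.71-fold below the transglutaminase gene Tgm2 (3.24 and 5.86 TPM; -1.44 ± 0.39) and at least 81.6-fold above F13a1, which had 0 counts. The ratios of Epb42 to Tgm2 and of Slc4a1 to Epb42 fell inside the limit with replicate 1 alone, at -1.16 and -1.36, and with 1 in place of 0.1 added, at -1.08 and -0.90. With the deposited posterior mean TPM they were -1.24 and -1.35, also inside it. Sptb and Ank1, which bind each other, differed 1.56-fold, inside the limit, although Sptb was higher in each replicate (log2 ratios 0.49 and 0.79).

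**Figure D2:**
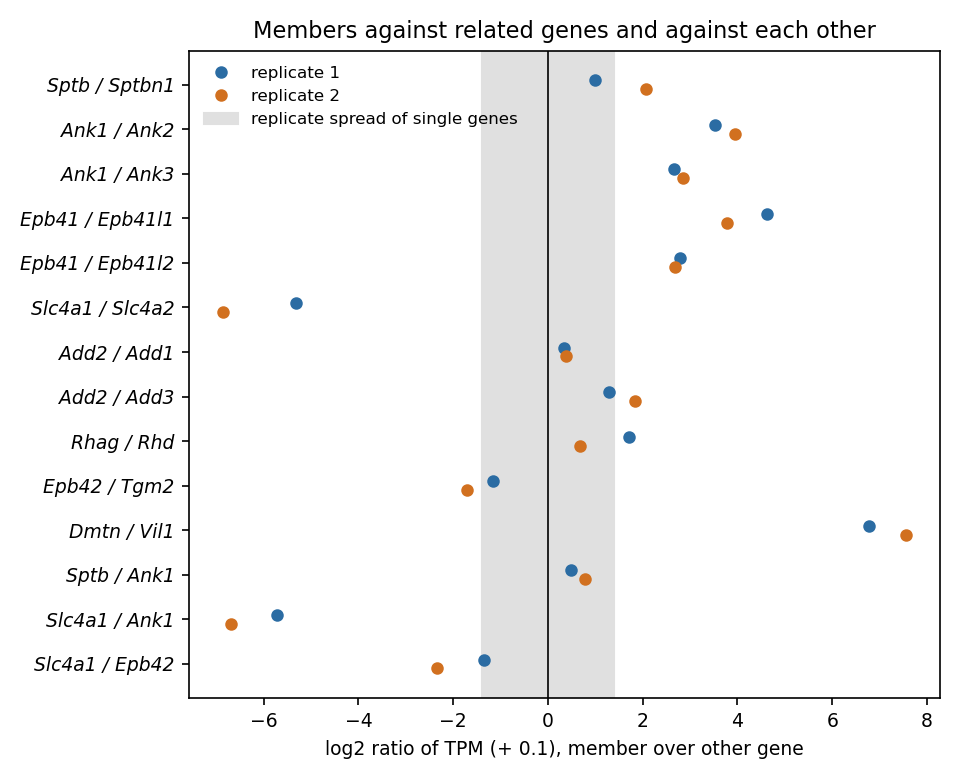
Log2 ratio of TPM, with 0.1 added, of a member over another gene, with 1 point per replicate; the grey band is the limit of 1.40 drawn from the replicate spread of single genes. Points right of the band mark a higher member and points left of it a lower one; Slc4a1 lies far left against Slc4a2 and Ank1, Ank1 and Epb41 lie right against their relatives, and Add2 over Add1 lies inside the band. Pairs whose other gene had 0 counts in either library are not drawn.

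Over the 19 relatives, 11 reached 1 TPM and 7 reached 10 TPM in both replicates, 4 had 0 counts in both, and the median of the mean levels was 4.55 TPM. The 17 listed partners, genes of the skeleton and of the red cell membrane, were broadly expressed, with 17 at 1 TPM, 16 at 10 TPM and a median of 62.8 TPM. The actin genes were the highest, with Actb at 834 and 981 TPM and Actg1 at 809 and 1359 TPM, and of the actin capping genes Capzb stood at 239 and 268 TPM. Tropomyosin, which lines the actin filament, was present as Tpm3 at 315 and 156 TPM and Tpm1 at 127 and 85.8 TPM. The lowest partner was Tmod1, the tropomodulin that caps the slow-growing filament end in red cells, at 8.56 and 6.09 TPM, and Tmod3 stood at 51.9 and 27.6 TPM. Membrane proteins anchored at the nodes ranged from Mpp1 (23.4 and 41 TPM), the scaffold that joins protein 4.1 to glycophorin C, to Gypc (61.6 and 64 TPM) and Kel (45.4 and 61.4 TPM). Cd47, of the Rh and ankyrin complex, was at 75 and 40 TPM.

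The choice of transcripts within Epb41 is known to set which protein 4.1 is made. An alternative exon of 63 nt, called exon 16, codes for part of the domain that binds spectrin and actin, and its inclusion is known to rise as erythroid cells mature. Upstream of it 2 further alternative exons of 57 and 42 nt lie in the same intron of the skipping transcripts. The sequences are shown because the measured inclusion of these 3 exons differed between the replicates. They were read from GENCODE M21 transcripts on mm10, minus strand, 5′ to 3′; capitals mark the alternative exons, and the junction joins the 30 bases on either side where all 3 are skipped.
Epb41 57-nt exon, chr4:131964131-131964187: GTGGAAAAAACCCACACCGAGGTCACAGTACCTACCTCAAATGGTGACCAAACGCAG
Epb41 42-nt exon, chr4:131963929-131963970: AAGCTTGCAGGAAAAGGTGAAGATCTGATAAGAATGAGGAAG
Epb41 63-nt exon, chr4:131962924-131962986: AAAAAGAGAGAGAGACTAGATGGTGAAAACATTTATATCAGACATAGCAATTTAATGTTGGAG
Epb41 skipped junction, chr4:131957790-131967817: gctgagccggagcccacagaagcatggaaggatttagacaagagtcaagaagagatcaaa

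Inclusion was taken as the TPM of transcripts with an exon over the TPM of transcripts with it or spanning it. For the 63-nt exon, transcripts with it summed to 46.7 TPM and those skipping it to 47.8 TPM in replicate 1, and to 10.9 and 65.8 TPM in replicate 2. This gave an inclusion of 49.4% in replicate 1 and 14.3% in replicate 2, or 31.8% ± 24.9 (SD, n = 2). Among coding transcripts alone the mean was 36.8%. Skipping was more common than inclusion in replicate 2, and the forms were about equal in replicate 1. The 57-nt exon was included at 28.8% and 0.821% and the 42-nt exon at 46.7% and 12.8%, again higher in replicate 1. By contrast a 105-nt exon nearer the 5′ end was included at 99.2% and 82.2% and a 102-nt exon at 99.4% and 99.8%, while a 450-nt exon was at 6.48% and 8.3%. All of these lengths are multiples of 3, so each exon keeps the reading frame. The 57, 42 and 63-nt exons are all held by Epb41-205, listed at 25.5 TPM in replicate 1 and 0 in replicate 2. Their 3 differences between the replicates are therefore not independent. For the 57-nt exon, transcripts with it summed to 27.3 and 0.63 TPM. Inclusion rests on the assignment of reads to listed transcripts, and reads across exon junctions were not counted.

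Genes of factors known to act on exon 16 were unequal in level. Rbfox2, which promotes inclusion, stood at 2.8 and 2.7 TPM, and Rbfox1 had 1 and 0 counts. Hnrnpa1, which represses inclusion, was at 884 and 732 TPM. Srsf1 stood at 668 TPM in replicate 1 and 317 TPM in replicate 2, and Rbm39 at 467 and 188 TPM, both higher in replicate 1. Tia1 was at 29.7 and 16.2 TPM, and Pcbp1, at 176 and 292 TPM, was higher in replicate 2. With the GC trend between the libraries removed, the log2 ratio of replicate 2 over replicate 1 went from 0.72 to 0.00 for Pcbp1 and from -0.84 to -0.02 for Tia1, while Srsf1 stood at -0.58, Rbm39 at -0.53 and Hnrnpa1 at 0.42. The part of these factors in the inclusion values was not tested.

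Reads of the single-end libraries were divided among 18 listed Epb41 transcripts, and the division differed between the libraries. Epb41-202 led in both, at 29.8% of the TPM of the gene in replicate 1 and 35.3% in replicate 2. Epb41-205, which also codes for protein, stood at 25.5 TPM (24.1%) in replicate 1 and was listed at 0 in replicate 2, with credibility bounds of 21.5 to 28.7 TPM and of 2.78e-06 to 0.507 TPM. Epb41-206 moved the other way, from 0.59 TPM (0.558%) to 10.9 TPM (12.8%). The processed transcript Epb41-215 held 9.22% and 21%, and the short coding transcript Epb41-216 held 17.2% and 10.9%. Coding transcripts together held 80.3% and 78% of the TPM. These bounds describe the assignment of reads within a library and not the spread between cultures.

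**Figure D3:**
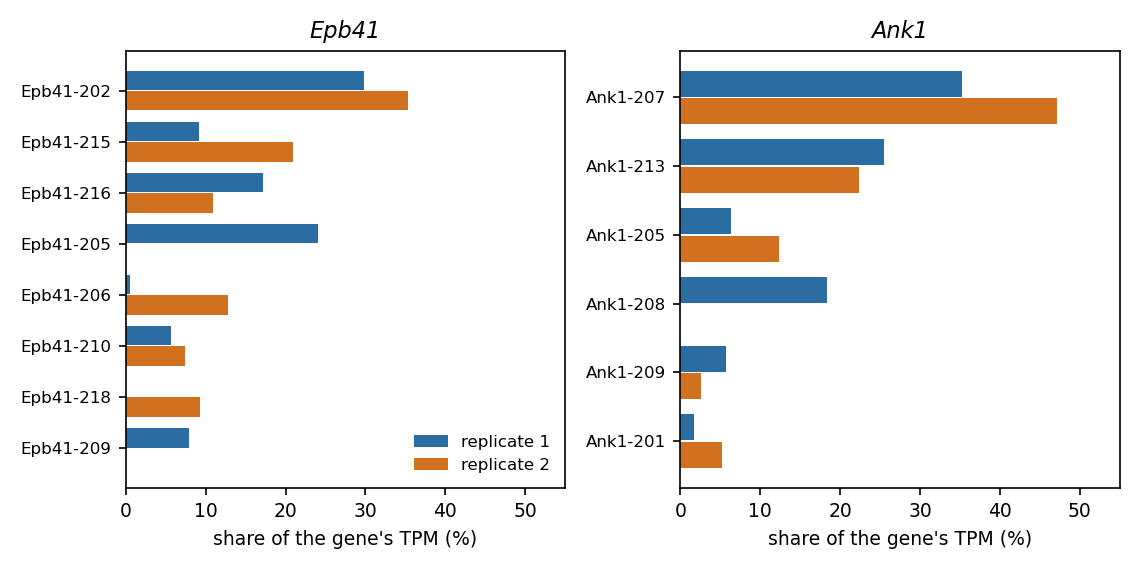
Share of the TPM of Epb41 and of Ank1 on their most abundant transcripts, with 1 bar per replicate, in percent. Epb41-202 and Ank1-207 lead in both replicates, while Epb41-205 and Ank1-208 have a bar in replicate 1 alone.

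Such a change was not rare among expressed genes. Of 5271 genes at 10 TPM in both replicates with more than 1 transcript, 13.3% had a transcript at 10% or more in one replicate that was at 0 in the other, with bounds apart. Among the members, 4 belonged to this background (Sptb, Ank1, Epb41 and Dmtn), and 2 of the 4 showed such a transcript, Epb41-205 and Ank1-208. The most abundant transcript was the same in both replicates for 4 of 4, against 78.4% of the background.

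Epb41 also has 2 start codons, and use of the upstream one gives a longer protein 4.1 that is known to be lost in late erythroid cells. The upstream codon lies in an exon with 2 forms. The sequence is shown to mark what the shorter form lacks: capitals are the 10 coding bases, start codon included, that are absent from it (GENCODE M21, mm10, minus strand).
Epb41 upstream start codon, chr4:132007390-132007431: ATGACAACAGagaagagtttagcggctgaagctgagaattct

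Of the TPM on the 12 transcripts with that exon, the shorter form without the start codon held 13.2% in replicate 1 and 30% in replicate 2, or 21.6% ± 11.9 (SD, n = 2). Most of the shorter form was Epb41-215, which has no coding sequence, at 9.74 and 17.9 TPM. The coding Epb41-204 was at 0.57 and 0.17 TPM. The longer form was the majority in both and included the noncoding Epb41-209, at 8.35 TPM in replicate 1 and 0 in replicate 2. These shares therefore do not measure which start codon is used. By annotated start, 54.4% and 48% of the TPM of Epb41 lay on transcripts from 132007431-132007438, at the upstream codon's own exon. Transcripts from the far 5′ end of the gene, at 132075264-132075321, held 17.7% and 21.3%. Starts at 131967845-131967876, in the 3′ part of the gene, held 22.9% and 18.4%. The transcripts there, Epb41-210 and Epb41-216, have a coding sequence but no annotated start codon, and Epb41-205 begins at the upstream codon itself. These positions are ends of annotated transcripts and not measured start sites.

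Ank1 is read from several first exons that give ankyrins with different N-termini, and a start far inside the gene gives a small ankyrin known from muscle, which lacks the ankyrin repeats. The beginnings of 3 coding sequences, those with 10% or more of the TPM of the gene in a replicate, are shown because the transcripts measured here differ in them (GENCODE M21, mm10, plus strand, first coding exon cut at 45 bases); capitals mark the start codon.
Ank1 start in Ank1-213, chr8:23035231-23035245: ATGggcttctgtaaa
Ank1 start in Ank1-207, chr8:23058632-23058670: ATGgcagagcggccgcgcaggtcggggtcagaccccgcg
Ank1 start in Ank1-208, chr8:23139277-23139321: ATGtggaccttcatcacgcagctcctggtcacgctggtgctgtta

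The start codon at 23058632, that of Ank1-207, carried 38.5% of the TPM of Ank1 in replicate 1 and 50.8% in replicate 2, and the one at 23035231, that of Ank1-205 and Ank1-213, carried 32.9% and 38%. By posterior mean TPM these shares were 26.5% and 42.8% for the first and 31.5% and 37.3% for the second, so their order in replicate 1 depends on the estimate. The choice of starts at 10% or more rests on the deposited TPM as well: the start at 22975136 held 5.96% and 3.77% of it, but 17.3% and 11.4% of posterior mean TPM. The small ankyrin start at 23139277 carried 20.1% in replicate 1 and 5.23% in replicate 2, and of expected counts, in which its short transcripts weigh less, 5.38% and 0.738%. Single transcripts were led by Ank1-207 at 35.3% and 47.1%, followed by Ank1-213 at 25.5% and 22.3%, while Ank1-208 stood at 18.4% and 0%. The bounds of Ank1-207 were wide and overlapped, from 4.63e-06 to 12.1 TPM and from 7.49 to 18.1 TPM.

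The internal alternative exons of Ank1 had close values in the replicates. A 24-nt exon (chromosome 8, 23110347-23110370) was included at 57.5% and 58.8%, and a 125-nt exon (23141596-23141720), whose length is not a multiple of 3, at 72.4% and 71%. A 117-nt exon was at 2.37% and 1.37%. Coding transcripts held 95.5% and 96.6% of the TPM of Ank1.

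**Figure D4:**
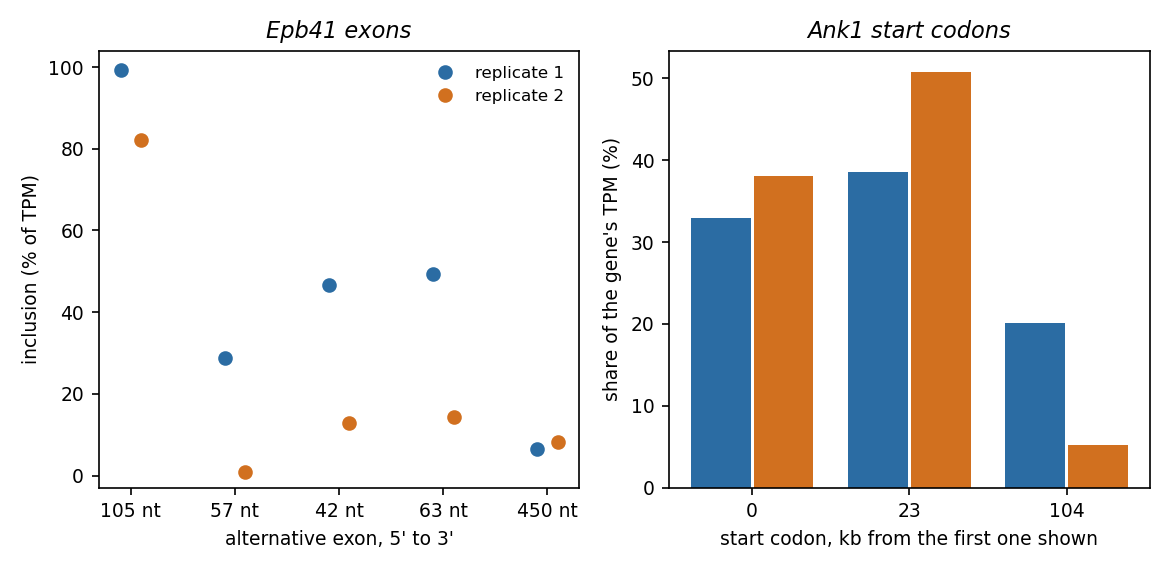
Left, inclusion of the alternative exons of Epb41 in percent of TPM, in 5′ to 3′ order, with 1 point per replicate; right, share of the TPM of Ank1 on each start codon with 10% or more in a replicate, by its distance in kb from the first one shown, with 1 bar per replicate. The 57, 42 and 63-nt exons of Epb41 are higher in replicate 1, and the first pair of Ank1 start codons hold most of the TPM in both replicates.

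Sptb was nearly a single-transcript gene in these cells. Sptb-202, with a coding sequence of 6411 nt, was measured at 41.2 and 62.2 TPM, or 96% and 96.6% of the gene. Sptb-201, with a coding sequence of 6987 nt and the longer C-terminus known from muscle and brain, was at 1.61 and 2.18 TPM, or 3.75% and 3.38%. The last 45 coding bases before the stop codon show the different ends of the 2 beta spectrins (GENCODE M21, mm10, minus strand).
Sptb end in Sptb-202, chr12:76597660-76597704: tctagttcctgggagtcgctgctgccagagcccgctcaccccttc
Sptb end in Sptb-201, chr12:76583228-76583272: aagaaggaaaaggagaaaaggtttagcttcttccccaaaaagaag

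Dmtn was led by Dmtn-203 at 92.1% and 88.5%, with Dmtn-202 at 7.94% and 11.5%, and Add2 and Rhag have a single listed transcript each. Reads of Epb42 were spread over 4 transcripts at 10% or more. Epb42-202 held 31.4% and 16.4%, Epb42-201 held 21.4% and 31.6%, and the retained-intron transcript Epb42-205 held 23.6% and 43.9%, with overlapping bounds for each. Coding transcripts held 52.8% and 48% of the TPM of Epb42, so under 1 TPM of it was on coding transcripts in either replicate.

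Between the replicates, the members moved in both directions, and 0 of 8 differed 2-fold or more in counts, against 20.4% of the 15251 genes compared (8.01% higher in replicate 2 and 12.4% higher in replicate 1). The comparison has 1 library a side, so its intervals compare these libraries and carry no p. On the log2 scale of normalised counts, replicate 2 exceeded replicate 1 by 0.78 for Dmtn (95% interval 0.71 to 0.85), 0.58 for Sptb (0.55 to 0.61), 0.47 for Ank1 (0.43 to 0.50) and 0.32 for Add2 (0.29 to 0.36). For Slc4a1 the difference was 0.88 with an interval of 0.25 to 1.57. Rhag was the member higher in replicate 1, at -0.66 (-0.70 to -0.61). For Epb42 the interval ran from -0.38 to 0.24, and Epb41 differed by 0.03 with an interval that held 0.

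The GC content of the genes moved with this difference over the whole library: across the tested genes the Spearman correlation of GC content and log2 ratio was 0.75, a description in which all genes share the same pair of libraries. The 5 members with a GC content of 55.2% to 56.7%, Sptb, Ank1, Add2, Dmtn and Slc4a1, were those higher in replicate 2, and Rhag had the lowest GC content of the members, 42.5%. With the GC trend removed, the members lay between -0.30 (Add2) and 0.24 (Rhag), and Rhag, Ank1, Add2 and Epb42 changed sign. Of the erythroid markers 8 of 9 were higher in replicate 2 in deposited TPM, with Gata1 at 163 and 376 TPM and Klf1 at 114 and 198 TPM. Tfrc was lower, at 178 and 80.7 TPM. Those 8 had a GC content from 50.6% (Alas2) to 61% (Klf1), and Tfrc had 42.1%. The median over the tested genes was 50.7%. Over genes at 1 TPM or more in both, the median log2 ratio of TPM was 0.03. The GC trend was not removed from the marker values, and what lies behind their difference was not tested.

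**Figure D5:**
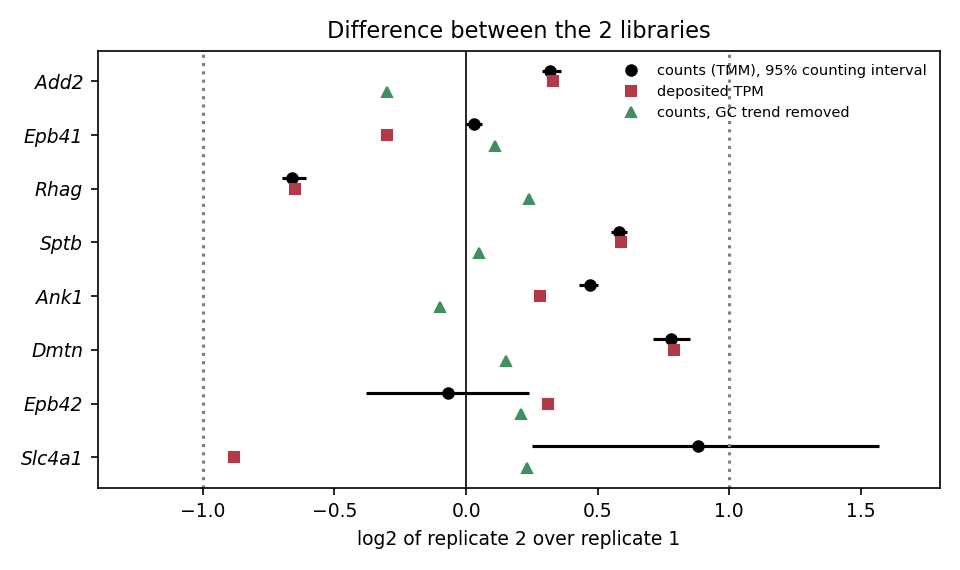
Log2 ratio of replicate 2 over replicate 1 for each member from counts with TMM library sizes (black, with the 95% counting interval), from deposited TPM (red squares) and from counts with the GC trend removed (green triangles); dotted lines mark 2-fold. Every point of the 3 measures, though not the interval of Slc4a1, lies inside the 2-fold lines, and the triangles lie nearer to 0 than the counts for 6 members, all but Epb41 and Epb42.

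Promoter sequence was held in the RefSeq table for 5 of the members, at 7 start sites. The promoters of Rhag, at 77.8 TPM, and of Epb42, at 1.55 TPM, are shown because they belong to a high and a low member and both carry letters that the erythroid factor GATA1 is known to bind. The search was for GATAA or GATAG preceded by A or T, on both strands, in the 250 bases before the start; capitals mark matches (RefSeq, GRCm38.p6).
Rhag promoter, chr17:40810899-40811148, plus strand: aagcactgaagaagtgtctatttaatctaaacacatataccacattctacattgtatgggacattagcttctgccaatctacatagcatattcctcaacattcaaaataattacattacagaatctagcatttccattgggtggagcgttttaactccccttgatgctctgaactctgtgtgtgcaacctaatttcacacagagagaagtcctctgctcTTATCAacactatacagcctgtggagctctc
Epb42 promoter, chr2:121036878-121037127, minus strand: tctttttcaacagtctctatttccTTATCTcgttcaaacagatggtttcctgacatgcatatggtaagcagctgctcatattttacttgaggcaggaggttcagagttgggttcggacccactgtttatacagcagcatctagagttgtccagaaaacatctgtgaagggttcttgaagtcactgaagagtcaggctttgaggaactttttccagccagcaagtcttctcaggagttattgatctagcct

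Of all 32851 promoters in the table, 26.5% held such a match. Rhag, Epb42, Add2 and the Epb41 start at 132075313 held 1 each, and Sptb and the other 2 Epb41 starts held 0. A letter match to the CACCC element bound by KLF1, searched as CCNCNCCC on both strands, was found in 45.9% of all promoters, 3 times at Sptb, 2 times at Add2, 3 and 6 times at 2 of the Epb41 starts, and 0 times at Rhag and Epb42. No binding was measured, so these are descriptions of the letters. The transcript of Add2 measured here starts at 86078084, downstream of the Add2 start in the table, so that promoter is not the one of Add2-201. The Sptb start searched, 76710547, is that of Sptb-201, while Sptb-202, with 96% and 96.6% of the gene, starts at 76710023. At Epb41 the start with 6 CACCC matches is 132049078, and transcripts from 132049078-132049091 held 1.21% and 0.538% of its TPM. Those from 132072097 held 0.483% and 0.596%.

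Genes that overlap the members were at low levels. Plekhg3, on the strand opposite to Sptb, stood at 3.17 and 4.58 TPM, and the antisense gene Gm15816 at Ank1 stood at 0.29 and 0.51 TPM. Whether counting used strand is not given in the sources used here. Reads of such overlaps therefore cannot be told apart. Mir486, a miRNA inside Ank1 on the same strand, was at 0.26 and 0.4 TPM, a level of polyadenylated RNA and not of the mature miRNA.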

How the data were processed

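Polyadenylated RNA of MEL cells was measured in 2 single-end libraries. Per the file headers and the text deposited with each sample, reads were aligned to mm10 and quantified with GENCODE M4. Which aligner and quantifier were used, and whether strand was, is not given in the sources used here. Expected counts, as deposited, estimate the reads of each gene or transcript, and a model divides shared reads. The authors scaled TPM by effective length to a fixed sum per library, and the deposited FPKM by effective length and fragments. The deposited score columns hold credibility bounds of TPM and the count's posterior SD. Other listed features took 0.0574% and 0.131% of counts and were left out of library sizes. They held 2.93% of the deposited TPM in replicate 1 and 6.24% in replicate 2, and the TPM levels given were not rescaled for this.

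Symbols, types, exons and start codons were those of GENCODE M21, also on mm10, which named 42462 of 43346 genes. All listed transcripts of Sptb, Ank1, Epb41, Epb42, Slc4a1, Add2 and Rhag, and 1 of 3 of Dmtn, had the same length in both releases. Transcript shares are the TPM of a transcript over that of its gene. Expected counts were rounded, filtered at a summed count of 20 and compared with TMM library sizes (edgeR 4.0.16, R 4.3.3) and exact binomial (Clopper-Pearson) intervals at 95%, with a prior count of 0.5 on the log2 ratio. This step was tested on simulated data. The GC trend was fitted by lowess (fraction 0.3). Alternatives included DESeq2 1.42.0 size factors, and 3 were added after the data were examined. Other tools were matplotlib 3.10.9, scipy 1.17.1, pandas 2.3.3, numpy 2.4.6 and Python 3.11.15.

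Members, lists, pairs and tests were chosen with earlier results of these data known. Genes named are the members, the lists of relatives, partners, splicing factors and markers, and transcripts at 10% or more of a member in either replicate; other transcripts, exons, overlapping genes and start sites named were singled out after their values were seen. Values of some single listed items are not reported here. Likeness of expression patterns was not measured with 2 samples.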

Additional observations from a re-analysis of the deposited data

How the results depend on the processing

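Of 412 values recomputed for 77 results, 343 stayed, 58 moved, 10 lost a call and 1 gained one. To stay meant lying within the spread, the counting interval or, for counts, a fixed fold, or on the same side of the limit. A mean of 2 replicates stays within its SD whichever is left out, so such values for levels, shares and inclusions could not move. Of 245 values of single items in which no replicate was left out, 191 stayed. No called value changed sign, but uncalled ratios of replicate 2 over replicate 1 did: with the GC trend removed Rhag went from -0.66 to 0.24, Ank1 from 0.47 to -0.10, Add2 from 0.32 to -0.30 and Epb42 from -0.07 to 0.21, and with deposited TPM Slc4a1 went from 0.88 to -0.88, Epb41 from 0.03 to -0.30 and Epb42 to 0.31. Epb41 was also -0.02 with protein-coding genes alone, and Epb42 0.05 with library totals. The median level of the members, 43.8 TPM, moved to 31.2 with FPKM and to 34.4 with the length of the longest transcript, an alternative chosen after seeing the data, and ranged from 36.7 to 48.9 with each replicate left out. The genes 2-fold higher in replicate 2 numbered 1222, but 619 with the GC trend removed, 661 with protein-coding genes alone, 693 at a summed count of at least 200 and 3617 with no filter. Those 2-fold higher in replicate 1 numbered 1892, and 704, 1249, 1207 and 4541 under the same alternatives. The pairs past the replicate spread numbered 16, and 13 with 1 added to TPM, with posterior mean TPM or without replicate 2, and 16 without replicate 1. Members at 1 TPM numbered 6 to 7 and members at 10 TPM 5 to 6 under every alternative run, with 7 and 6 when either replicate was left out. Inclusion of the 63-nt exon of Epb41 ranged from 14.3% to 49.4% with each replicate left out. It was 24.1% by expected counts and 36.8% among coding transcripts. The share of Epb41 without the upstream start codon, most of it on the noncoding Epb41-215, ranged from 13.2% to 30%. Slc4a1, at 29 and 69 counts, and Epb42, at 163 and 199, are limited by depth, so their transcript shares are imprecise. No paired analysis was possible because there is only 1 group.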
